A study of Mus musculus with 2 samples.

Results

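The transcribed locus described here lies on mouse chromosome 1 around Mir30a, the gene of the microRNA precursor that gives miR-30a. Its members were all tissue-specifically transcribed regions (TSTRs) lying between positions 23200000 and 23320000 of chromosome 1 (mm9), a window of 120 kb that holds the hairpin genes Mir30a and Mir30c-2. TSTRs are stretches outside annotated genes whose read counts differed between the heart and the limb. The window held 9 TSTRs, all of them among the 834 regions of the heart list, out of 1912 regions in the heart and limb lists together. None of the 1078 limb-list regions fell in it. The members were chosen by position, but the list that holds them was selected on the heart and limb read counts, and the locus was picked with those counts known. Its heart and limb values are therefore a description, without a test.

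Total RNA came from CD-1 mouse hearts and limbs microdissected at embryonic day (E) 11.5. Each tissue was pooled from several embryos and sequenced as 1 library after ribosomal RNA depletion, so 2 samples were compared and no spread between replicates can be given. The libraries kept strand, but the deposited counts do not give reads by strand. In whole tissue, fewer cells of a type and less RNA per cell cannot be told apart.

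MicroRNAs are cut from hairpins within longer primary transcripts, which can start many kilobases upstream of the hairpin and are processed in the nucleus. The miR-30 family is made from several gene clusters in mammals, is expressed in many tissues including the heart, and pairs with its target messages through a shared seed near the 5′ end. RNA from non-coding DNA can also come from enhancers, which are often transcribed at a low level when active. The counts do not say which of these kinds of transcript a region belongs to.

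The 4 mature microRNAs of the locus (RefSeq sequences, GRCm38.p6 table) were matched to the plus strand of mm9 and are shown because they are the known products of the hairpins around which the TSTRs lie. Capitals mark the seed, bases 2 to 8. They lie at chr1:23279113-23279134, chr1:23279154-23279175, chr1:23298553-23298575 and chr1:23298593-23298614, in the order printed.
miR-30a-5p: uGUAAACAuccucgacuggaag
miR-30a-3p: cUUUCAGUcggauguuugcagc
miR-30c-5p: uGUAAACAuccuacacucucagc
miR-30c-2-3p: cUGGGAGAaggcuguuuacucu

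miR-30a-5p and miR-30c-5p are identical over their first 12 bases. Among the 1679 mature microRNAs of the table, their seed, GUAAACA, was also found in miR-30e-5p and miR-384-5p. The search returned no match for miR-30b or miR-30d. Whether the table holds these 2, or under which names, was not checked, so nothing about their seeds is read from this. The seeds of the 2 strands cut from the other arm of the hairpins differ from GUAAACA and from each other. The Mir30a hairpin (71 bases) and the Mir30c-2 hairpin (84 bases) matched mm9 exactly at their GENCODE vM1 positions, chr1:23279108-23279178 and chr1:23298540-23298623, both on the plus strand and 19432 bp apart from start to start. They are printed with both mature RNAs in capitals.
Mir30a hairpin: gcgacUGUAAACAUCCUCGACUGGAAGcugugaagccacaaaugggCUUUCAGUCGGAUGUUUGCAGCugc
Mir30c-2 hairpin: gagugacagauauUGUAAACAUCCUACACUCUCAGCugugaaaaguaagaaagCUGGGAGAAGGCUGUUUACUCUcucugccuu

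None of the 9 regions overlapped an annotated gene, and none covered a hairpin. The regions are numbered 1 to 9 from left to right, which is from upstream to downstream on the strand of the microRNAs. Regions 1 to 5 lay upstream of Mir30a, region 6 between the hairpins, and regions 7 to 9 downstream of Mir30c-2. Regions that overlap a known gene, mRNA or expressed sequence tag had been removed from the lists, so the gaps between members are not shown to be silent. The left edge of region 1 lay 135 bp past Gm6420, a predicted gene annotated as protein-coding (chr1:23262826-23263245). Gm6420 is on the minus strand, so the edge that faces region 1 is its annotated start. The small nucleolar RNA SNORA17 (chr1:23252050-23252170) was the only other annotated gene in the window. Beyond the window, the nearest protein-coding genes were 4933415F23Rik, 154288 bp to the left of region 1, and Ogfrl1 on the right (chr1:23373263-23390014).

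The 3 stretches printed next are plus-strand mm9 sequence, chosen for what the regions showed. They are the central 300 bases of region 2, which had the highest RPKM (chr1:23267063-23267362), of region 3, which had the most reads (chr1:23272535-23272834), and of region 7, which had the highest ratio of heart to limb (chr1:23302248-23302547). Capitals mark the motif letters searched for below.
region 2, centre: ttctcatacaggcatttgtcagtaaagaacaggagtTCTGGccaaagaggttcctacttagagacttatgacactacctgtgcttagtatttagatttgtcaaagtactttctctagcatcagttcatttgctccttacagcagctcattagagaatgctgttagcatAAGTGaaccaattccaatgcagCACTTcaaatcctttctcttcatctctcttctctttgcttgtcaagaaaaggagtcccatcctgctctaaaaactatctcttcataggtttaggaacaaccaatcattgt
region 3, centre: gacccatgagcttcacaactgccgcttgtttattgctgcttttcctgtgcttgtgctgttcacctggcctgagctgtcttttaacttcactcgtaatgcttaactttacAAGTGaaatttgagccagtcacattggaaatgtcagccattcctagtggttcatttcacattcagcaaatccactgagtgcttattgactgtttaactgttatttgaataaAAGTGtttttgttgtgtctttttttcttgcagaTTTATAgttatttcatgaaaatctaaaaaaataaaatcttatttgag
region 7, centre: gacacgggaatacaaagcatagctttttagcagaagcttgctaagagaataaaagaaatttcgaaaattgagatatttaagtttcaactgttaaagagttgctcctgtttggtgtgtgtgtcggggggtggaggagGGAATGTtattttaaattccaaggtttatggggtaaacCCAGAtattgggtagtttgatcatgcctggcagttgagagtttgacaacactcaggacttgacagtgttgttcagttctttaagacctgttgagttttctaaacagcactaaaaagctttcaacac

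RNA was highest in regions 2 to 5, upstream of Mir30a, in both tissues. Levels are given as RPKM, the reads of a region divided by its length in kilobases and scaled to the mapped reads of the tissue. The 95% exact Poisson or binomial intervals follow in brackets. With 1 library per tissue the intervals cover counting error only. Ratios are heart RPKM over limb RPKM. The limb was the lower tissue at all 9 regions, which follows from their place in the heart list. Its count was above 0 at each of them, from 15 reads at region 8 to 767 at region 3.

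Region 1 (chr1:23263380-23266423) held 1453 heart and 519 limb reads, an RPKM of 2.15 (2.04 to 2.26) in the heart and 0.886 (0.811 to 0.966) in the limb. Its ratio was 2.42 (2.19 to 2.68). With 3043 bp it was the longest region of the heart list, and its right end lay 12685 bp before the Mir30a hairpin.

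Region 2 (chr1:23266464-23267960) began 41 bp further on. Its 1799 heart and 614 limb reads gave an RPKM of 5.41 (5.16 to 5.66) in the heart and 2.13 (1.97 to 2.31) in the limb. These were the highest levels of the locus in either tissue, and the ratio was 2.54 (2.31 to 2.78).

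Region 3 (chr1:23271620-23273749) held 2096 heart and 767 limb reads. No other region of the heart list had as many heart reads. Its RPKM was 4.43 (4.24 to 4.62) in the heart and 1.87 (1.74 to 2.01) in the limb, a ratio of 2.37 (2.18 to 2.57). Region 4 (chr1:23273663-23274513) overlapped it by 86 bp, so reads in that stretch may be counted in both. It held 687 heart and 253 limb reads, an RPKM of 3.63 (3.37 to 3.92) and 1.55 (1.36 to 1.75), and its ratio was 2.35 (2.03 to 2.73).

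Region 5 (chr1:23274703-23275804) was the member nearest to Mir30a, ending 3304 bp before the hairpin. It had 1134 heart and 432 limb reads, an RPKM of 4.63 (4.37 to 4.91) in the heart and 2.04 (1.85 to 2.24) in the limb, and a ratio of 2.27 (2.03 to 2.54). The level next to the hairpin was thus within the range of the other upstream regions. Alignments had been extended to 200 bp, which is more than the gap between regions 1 and 2 or the 190 bp between regions 4 and 5.

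Region 6 (chr1:23288289-23288767) was the only member between the hairpins, 9111 bp past Mir30a and 9773 bp before Mir30c-2. It held 243 heart and 98 limb reads, an RPKM of 2.29 (2.01 to 2.59) in the heart and 1.07 (0.865 to 1.30) in the limb. Its ratio, 2.15 (1.69 to 2.74), was the lowest of the 9, and its heart level overlapped that of region 1 within the counting intervals.

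Past Mir30c-2 the levels were lower. Region 7 (chr1:23302242-23302553), 3619 bp beyond that hairpin, held 89 heart and 17 limb reads, an RPKM of 1.29 (1.03 to 1.58) and 0.284 (0.165 to 0.455). Its ratio of 4.53 (2.68 to 8.12) was the highest of the locus, and it rests on the smaller limb count. Region 8 (chr1:23314210-23314507) held 38 heart and 15 limb reads, an RPKM of 0.575 (0.407 to 0.790) and 0.262 (0.147 to 0.433), and a ratio of 2.19 (1.18 to 4.29). Region 9 (chr1:23316353-23317451), 17730 bp past Mir30c-2, held 135 heart and 35 limb reads, an RPKM of 0.553 (0.464 to 0.654) and 0.166 (0.115 to 0.230). Its ratio was 3.34 (2.29 to 4.99).

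In the order of heart RPKM, neighbours whose counting intervals overlapped were regions 5 and 3, regions 6 and 1, and regions 8 and 9. In the limb, the intervals of neighbours in the order overlapped except between regions 4 and 6 and between regions 1 and 7. The highest heart RPKM was 9.78 times the lowest, and the highest limb RPKM 12.9 times the lowest. The ratio spanned a narrower range, 2.11-fold from lowest to highest.

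**Figure D1:**
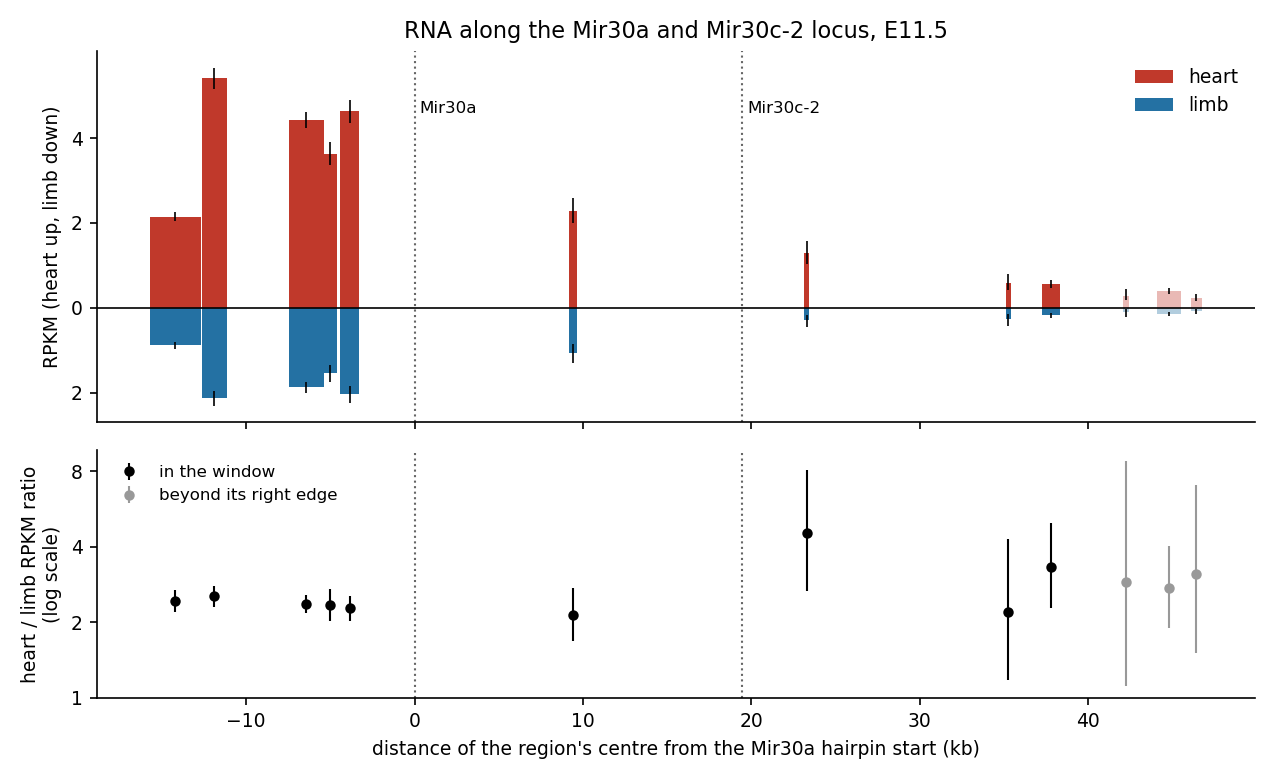
Deposited RPKM (upper panel, heart upward in red and limb downward in blue, each bar as wide as its region) and ratio of heart to limb RPKM (lower panel, log scale) against the distance of each region's centre from the Mir30a hairpin start. Error lines are 95% counting intervals and pale symbols are the 3 regions beyond the right edge of the window; the 5 upstream regions reached 2.15 to 5.41 RPKM in the heart with ratios of 2.27 to 2.54, and regions 7 to 9 stayed at or below 1.29 RPKM.

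Summed over the members, the locus held 7674 heart and 2750 limb reads, with 10717 bp covered. The pooled RPKM was 3.19 in the heart and 1.32 in the limb, a ratio of 2.42 (2.31 to 2.52). It used the summed lengths of the regions, in which the 86 bp shared by regions 3 and 4 count for both. The 5 upstream regions carried most of the RNA, with 93.4% of its heart reads and 94.0% in the limb, in 79.6% of the covered length. Their pooled ratio was 2.40 (2.29 to 2.51), and the interval of each of the 5 held that value, which pools their own reads. Their log2 ratios had an SD of 0.0588 across regions, against 0.353 across all 9. The upstream regions held 253 to 767 limb reads each and regions 7 to 9 held 15 to 35, so counting error differs between these SDs. Regions 7 to 9 together held 262 heart and 67 limb reads, a pooled RPKM of 0.691 and 0.204, and a ratio of 3.39 (2.58 to 4.50). That interval lay above the upstream one, whereas region 6 between them was at 2.15. Selection for the list asked for a higher ratio where reads were few, so no change of the ratio along the locus is read from these intervals. The interval of region 7 alone left out the pooled ratio of the locus. How many transcripts the 9 regions come from was not measured.

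All 9 members had a ratio above 2, a bound that 85.3% of the heart list and 37.2% of both lists passed. Since the list was selected on this contrast, nothing is read from that count. The lower bound of the interval was above 2 at 7 members (53.6% of the heart list), the exceptions being regions 6 and 8. All 9 passed a ratio of 1.5 (93.5% of the heart list) and 2 of the 9, regions 7 and 9, passed a ratio of 3 (75.4%). The right edge of the window cut through a run of heart-list regions. Region 9 was the last inside it. The next region beyond it (chr1:23321187-23321504) held 20 heart and 6 limb reads, a ratio of 2.89 (1.12 to 8.78). It was followed by chr1:23323172-23324601 with 123 and 39 reads, a ratio of 2.73 (1.89 to 4.02), and by chr1:23325188-23325874 with 36 and 10 reads, a ratio of 3.12 (1.51 to 7.04). With these 3 the locus held 7853 heart and 2805 limb reads over 12 regions, and the ratio stayed at 2.42 (2.32 to 2.53). On the left, the nearest other heart-list region lay at chr1:5324367-5324647.

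The members made up 1.08% of the heart-list regions and held 11.3% of that list's heart reads and 11.9% of its limb reads. By heart reads, regions 3, 2 and 1 held ranks 1, 2 and 3 of 834, and region 5 held rank 7. Per length they stood lower, with heart RPKM ranks from 19 for region 2 to 142 for region 9. All 9 lay above the list's median heart RPKM of 0.290 and above its median limb RPKM of 0.0404. For 6 of the 9 the limb RPKM was also above 0.346, the median limb RPKM of the limb list itself. In contrast, all 9 lay below the heart list's median ratio of 6.49, between its percentiles 16.2 (region 6) and 38.7 (region 7).

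In the heart list, 190 regions had no limb read, and the median region held 41 heart reads. Among the 137 heart-list regions with at least 100 heart reads, the median ratio was 3.71 (quartiles 1.43 and 13.7), and 62.0% had a ratio above 2. The 7 members in that set lay between its lower quartile and its median. A further cut, chosen after the values were seen, kept regions with at least 100 heart reads and a heart RPKM of at least 2. It held 6 members and 32 other regions, of which 5 had a ratio above 2 and whose median ratio was 1.30 (range 0.972 to 15.9).

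**Figure D2:**
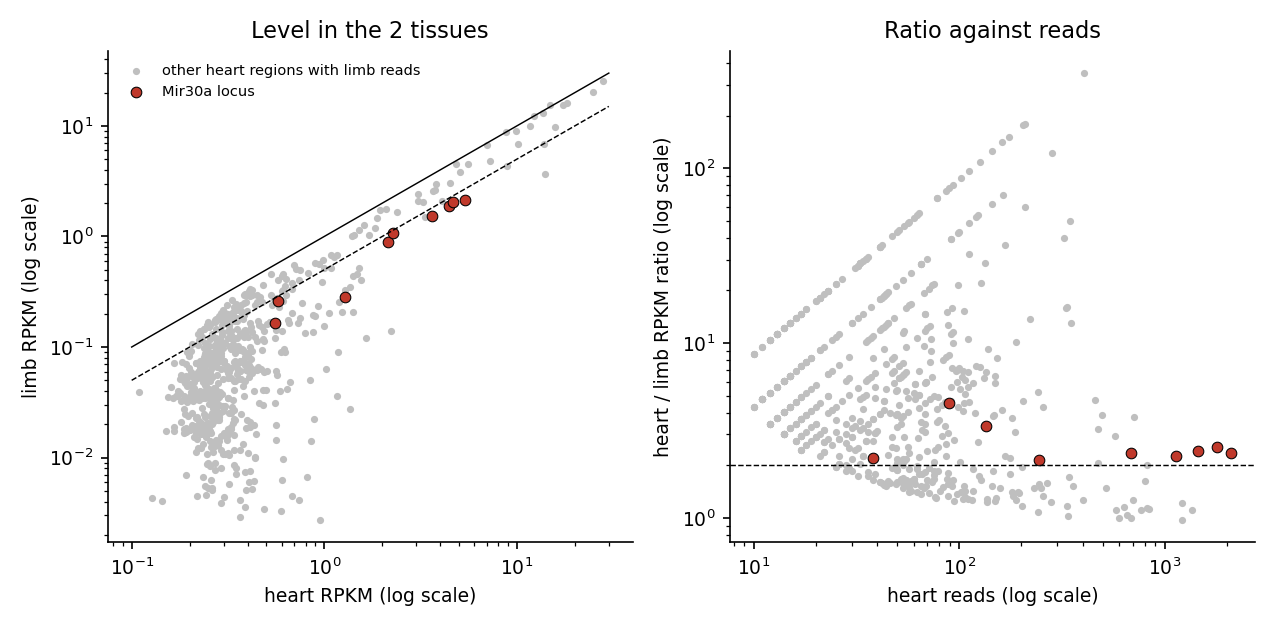
Heart-list regions with at least 1 limb read, the Mir30a locus in red and the others in grey, on log axes. Left, limb RPKM against heart RPKM, with equality as a solid line and a ratio of 2 as a dashed line; right, ratio against heart reads, with a ratio of 2 dashed. The 9 members lie below the dashed line on the left and above it on the right, at ratios of 2.15 to 4.53, and regions 3, 2 and 1 lie farthest right.

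The locus was set beside other clusters of the heart list, taken as chains of at least 5 regions with gaps of at most 20 kb. There were 27 such chains. The chain of the locus, with its 12 regions, held rank 1 by heart reads (7853) and rank 6 by number of regions. The next chain by heart reads (chr14:112083838-112133920, nearest protein-coding gene Slitrk5) held 1961 heart and 405 limb reads in 17 regions, a ratio of 4.19. The chain near Qk (chr17:10383271-10394261) had rank 3 with 1527 heart and 396 limb reads in 6 regions and a ratio of 3.34. By ratio, the locus held rank 5 of the 27 counted from the lowest. When chains were limited to gaps of 10 kb, the 5 upstream regions formed a chain of their own. Its highest ratio was 1.12 times its lowest, the narrowest range of the 27 chains under that limit. These ranges were not adjusted for counting error, which is smaller where reads are many, and this chain held 2585 limb reads. A chain in which any region lacked limb reads had no finite range and was ranked behind all chains that had one. With gaps of 20 kb or 50 kb the range of the locus was 2.11-fold, rank 6 from the narrowest.

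**Figure D3:**
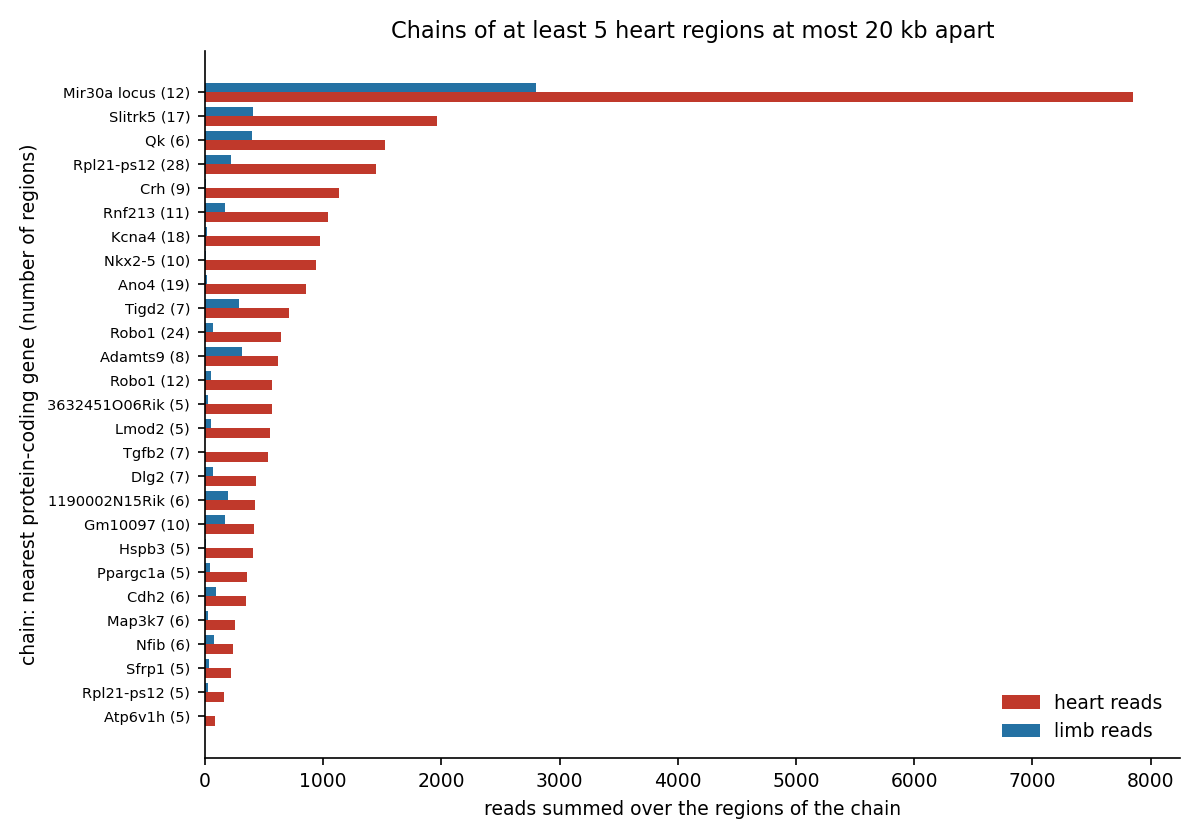
Heart reads (red) and limb reads (blue) summed over each of the 27 chains of at least 5 heart-list regions, labelled by the nearest annotated protein-coding gene with the number of regions in brackets. The chain of the Mir30a locus, with 12 regions, reached 7853 heart and 2805 limb reads, and the chain near Slitrk5 followed with 1961 and 405.

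The 3 heart-list regions outside the locus with levels most like the members' pooled RPKM in both tissues were single regions elsewhere. The nearest by log2 distance (0.20) was chr14:32272023-32272261, 22759 bp from the start of Sh3bp5, with 176 heart and 69 limb reads and a ratio of 2.21 (1.66 to 2.96). The second (chrX:64714862-64715081) held 116 heart and 70 limb reads, a ratio of 1.43 (1.06 to 1.96). The third (chr13:39099336-39099705), nearest to Slc35b3, held 268 and 146 reads, a ratio of 1.59 (1.29 to 1.96).

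The other miR-30 genes showed little or no listed RNA nearby. Within 60 kb of Mir30b and Mir30d, which lie together on chromosome 15, there was 1 heart-list region, with 79 heart and 37 limb reads. No listed region lay within 60 kb of Mir30c-1 or Mir30e, the cluster on chromosome 4. Of 529 annotated Mir genes, 17 had a heart-list region and 85 a limb-list region within 60 kb. Mir30a and Mir30c-2 ranked first by the heart reads in such regions, and Mir1932 came next with 11 regions, 1043 heart and 172 limb reads. Of 23 further microRNA genes with known roles in heart or limb, 22 were found in the annotation under their names, and 4 had a heart-list region nearby and 4 a limb-list region. Mir208a and Mir208b, made from introns of the heart myosin genes, had 2 heart-list regions with 99 heart and 2 limb reads. Mir17, of a cluster active in proliferating cells, had 4 limb-list regions with 773 heart and 1154 limb reads. Genes whose primary transcript is annotated as an mRNA or EST would not be counted, as such regions had been removed.

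The members differed in CpG content. In the central 300 bases, the median GC content of the members was 38.7% (range 35 to 45.3%) against 42% over all 1912 regions, and the median observed-to-expected CpG ratio was 0.109 against 0.207. Along the window in 240 bins of 500 bases, 5 bins had both a GC content above 50% and a CpG ratio above 0.6. Of these, 3 lay side by side, centred 16358, 15858 and 15358 bp before the Mir30a start, over Gm6420 and the left end of region 1. The middle one held 68 CpG pairs, the most of any bin, at 74.6% GC and a CpG ratio of 0.978. Over whole regions, region 1 held 26.3 CpG pairs per kb, region 8 held 23.6 and region 7 held 16.1, with CpG ratios of 0.572, 0.623 and 0.455. The other 6 members held 0 to 6.28 pairs per kb, with CpG ratios of at most 0.174. The remaining bins past both bounds were centred 30142 and 35142 bp after the Mir30a start, the second of them over region 8.

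**Figure D4:**
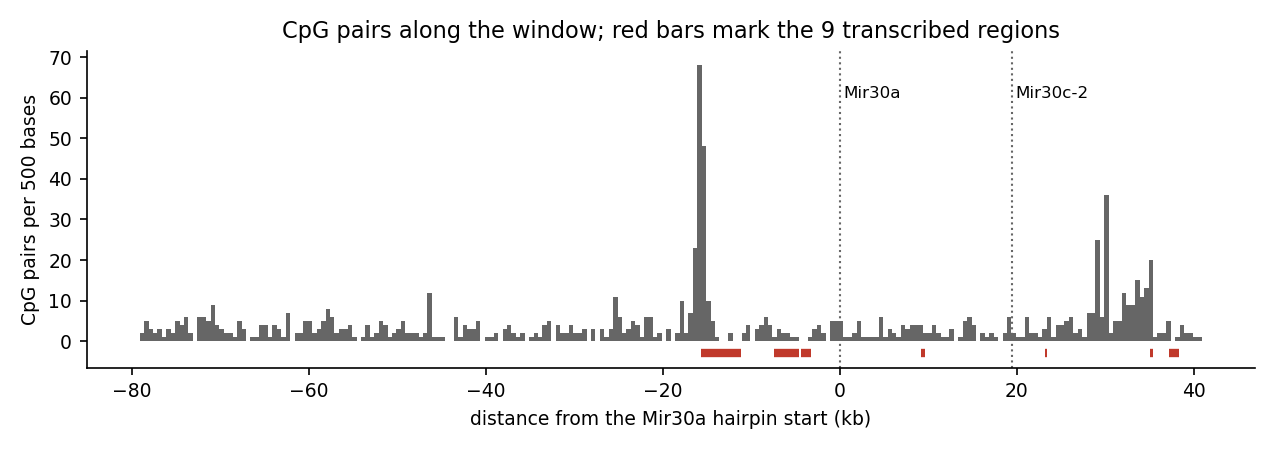
CpG pairs per bin of 500 bases along the window against the distance from the Mir30a hairpin start, with dotted lines at the hairpin starts and red bars marking the 9 regions. The tallest bin, with 68 pairs, is centred 15858 bp before Mir30a, at the left end of region 1.

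Motif letters were searched on both strands in the central 300 bases and are a description of the sequence, not of factor binding. AAGTG, the core bound by NKX2-5, was in 7 of 9 members against 56.4% of all 1912 regions, with 3 matches in region 4, 2 each in regions 2, 3 and 5, and 1 each in regions 1, 6 and 9. With 500 bases it was in 7 of 9 against 74.5%. TCTGG, bound by HAND factors, was in 5 of 9 against 56.2%, and TATAAA in 3 of 9 against 24.1%. AGATAA, bound by GATA factors, was in 1 of 9 against 19.4%. CAGCTG, an E-box bound by basic helix-loop-helix factors, was likewise in 1 of 9 against 11.9%. The TEAD letters ACATTCC were in 1 of 9, the match in region 7, against 4.50%. In region 1 a TCTGG match and the AGATAA match overlapped. The T-box letters AGGTGTGA were in none of these windows and in 0.785% of all regions. Likewise no member window held the MEF2 letters CTAAAAATA, found in 1.20% of all regions. The CREB letters TGACGTCA were also in none, and in 0.314% of all regions.

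Nearly all of the members' sequence was unique in the genome. In 7 members every 50-base word occurred once in mm9, and the lowest share of such words was 98.1%, in region 7. No member resembled an annotated coding transcript at 80% identity or more over at least 100 bases.

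The totals implied by counts, lengths and RPKM were 222362239 reads in the heart and 192488089 in the limb. The locus thus held 0.00345% (0.00337 to 0.00353) of the heart total and 0.00143% (0.00138 to 0.00148) of the limb total. These totals are close to the genome-mappable reads that the paper lists for each tissue. For its z-test the paper used totals without ribosomal regions, and ratios scaled to such totals were not computed here. For 10 heart genes and 10 limb genes, listed regions with that gene as their nearest protein-coding gene were counted. Of the heart genes, 5 had heart-list regions (19 regions, 1823 heart and 13 limb reads) and none a limb-list region. Of the limb genes, 4 had limb-list regions (14 regions, 9 heart and 1775 limb reads) and none a heart-list region. The direction of the reads follows from how the lists were made, so only the list in which a gene's regions fell bears on the tissue labels.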

How the data were processed

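Total RNA libraries of E11.5 heart and limb were aligned by the authors with Bowtie2 to mm9 (version not given in the sources used here), repetitively mapped reads were left out, alignments were extended to 200 bp, enriched regions were called, and those overlapping refGene, mRNA or EST annotation were removed. The authors deposited for each tissue-specific region the read count of both tissues, without normalization, and RPKM values, which divide the count by region length and by the total of the tissue. A region was kept in a list by their z-test on the counts (threshold 0.01). The smallest count in a region's own tissue was 10, and 3 reads, the floor used here, are 1.35e-06% of the heart total and 1.56e-06% of the limb total. Intervals are exact 95% intervals (Clopper-Pearson for ratios, Poisson for levels). Only the ratio intervals were run on simulated counts. Those counts were independent Poisson draws, without the selection of regions or variation between libraries. With 1 library per tissue no test was made.

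Start positions were read as 1-based; the files do not state the base. Hairpins and sequences were read from NCBIM37, the mm9 assembly, with GENCODE vM1, using samtools 1.23.1, blastn 2.17.0, Python 3.11.15, pandas 2.3.3, scipy 1.17.1 and matplotlib 3.10.9. Distances are between nearest edges. The members, gene lists and motifs were chosen with earlier results of these data known. All members are named; other regions are named where they lie just outside the window, lead the chains or lie nearest in level.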

Additional observations from a re-analysis of the deposited data

How the results depend on the processing

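The pooled ratio of heart to limb at the locus was 2.42. It stayed between 2.34 and 2.44 with the uniquely mapped totals of the study, with the median of the members' ratios, with 1 of the overlapping regions 3 and 4, in a window widened by 20 kb, with each member left out in turn and, chosen after seeing the data, with the upstream regions alone. Raw read counts without scaling gave 2.79. Totals without ribosomal reads were not tried, so the range above does not cover them. The paper lists a larger ribosomal share for the limb than for the heart. Such totals would therefore lower the ratios, by an amount not computed here. For single regions the alternatives were the uniquely mapped totals and 1 read added in each tissue. The ratios stayed within their counting intervals in 18 of 18 alternatives, but both changes are small beside those intervals, so little is read from this. The count of members past a ratio of 2 was 9, at 1.5 it was 9, by the lower bound 7, and at 3 it was 2, where 93.5%, 53.6% and 75.4% of the heart list passed. The locus ranked first among chains by heart reads with gaps of 50 kb too. With gaps of 10 kb it split, and the 5 upstream regions ranked first with 7169 heart reads. A second chain under that limit, which held regions 8 and 9, ranked 19 with 352 heart reads. All 9 members stayed below the list's median ratio with at least 20 heart reads, as did 7 of 7 with at least 100, which was chosen after seeing the data; of these 7, 6 lay above the median heart RPKM and 6 above the median limb RPKM. In windows of 500 bases in place of 300, members with the letters went from 5 to 8 for TCTGG (56.2% to 74.7% of all regions) and from 1 to 2 each for AGATAA (19.4% to 29.8%) and CAGCTG (11.9% to 19.5%). Counting length in unique 50-base words, also chosen afterwards, left the pooled RPKM at 3.20 in the heart and 1.32 in the limb.

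No paired analysis was possible because each tissue is 1 pooled library, so leaving out a replicate was not an option. The planned share of repeat-masked bases was not run, as the genome used carries no mask. Depth limits regions 7, 8 and 9, whose limb counts of 15 to 35 leave wide intervals.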
